A study of Saccharomyces cerevisiae with 6 samples.

Results

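Upper glycolysis is the stretch of the pathway that turns glucose into triose phosphate, and 8 genes of budding yeast were taken for it: HXK1, HXK2, GLK1, PGI1, PFK1, PFK2, FBA1 and TPI1. They were chosen by name, as the enzymes of 5 consecutive steps, from 5379 genes named on the array, with earlier results of these data known. Each was read by 1 probe. The cultures were Saccharomyces cerevisiae S288C, the reference laboratory strain, growing exponentially in glucose-containing YPD medium at 25 °C. The treated cultures then spent 2 h in 1.8 mM formaldehyde, a reactive aldehyde that crosslinks proteins and nucleic acids, and the controls spent 2 h without it. The labels give 3 independent biological samples, each on 1 two-colour array with treated cDNA in Cy5 and control cDNA in Cy3, and each array was read in a high power and a low power laser scan.

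Glucose enters the pathway when a hexokinase or the glucokinase attaches a phosphate to it, the product is rearranged and phosphorylated again, and aldolase splits the resulting sugar into triose phosphates. Yeast has a set of isoenzymes for the first reaction. In growth on plentiful glucose Hxk2 is the main one and also takes part in glucose repression, whereas HXK1 and GLK1 are known for stronger expression on other carbon sources. Phosphofructokinase, built from the products of PFK1 and PFK2, is the strongly regulated enzyme of this stretch.

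All values are log2 ratios, treated over control, so that -1 stands for a halved transcript. The direction is likely rather than stated: in the labels channel 1 holds the treated sample; if it ran the other way, every higher and lower would swap and each fold would be turned over. No array had its dyes exchanged, so a dye effect of a probe and the treatment cannot be told apart. Ratios carry no level, so the amount of one enzyme's transcript cannot be set against another's. In a culture, fewer cells that make a transcript and less of it per cell cannot be told apart either. A gene was tested when all 3 arrays had a value (2133 genes), with limma's moderated test of the mean against 0 and Benjamini-Hochberg adjustment over all of them. Arrays 1, 2 and 3 gave values for 2498, 3329 and 4292 genes. The precision is limited by having 3 arrays, and how far each probe stood above its background is not known, as no intensities entered. The median tested gene lay at 0.05, 0.21 and 0.31 on arrays 1, 2 and 3, and each higher or lower is relative to the zero of the authors' normalisation.

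Transcripts of every step were lower in the treated cultures for at least 1 of the step's enzymes, and the glucose-phosphorylating isoenzymes were unequally affected. HXK2, PGI1, PFK2 and FBA1 fell to between 12.4% and 22.4% of the control, TPI1 fell to 56.6%, and HXK1 and GLK1 did not pass the test. With the ratio turned, the first 4 would be 4.46- to 8.05-fold higher and TPI1 1.77-fold higher. Of the 7 genes tested, 5 were lower and 0 were higher at adjusted p under 0.05 (limma). Over all 2133 tested genes 25.3% were called lower and 37.2% higher. The median of the 7 genes was -2.16, against 0.18 for all tested genes. PFK1 was seen on array 3 alone and stayed out of the test. The same 5 genes kept adjusted p under 0.05 in each setting that gave them a value.

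**Figure D1:**
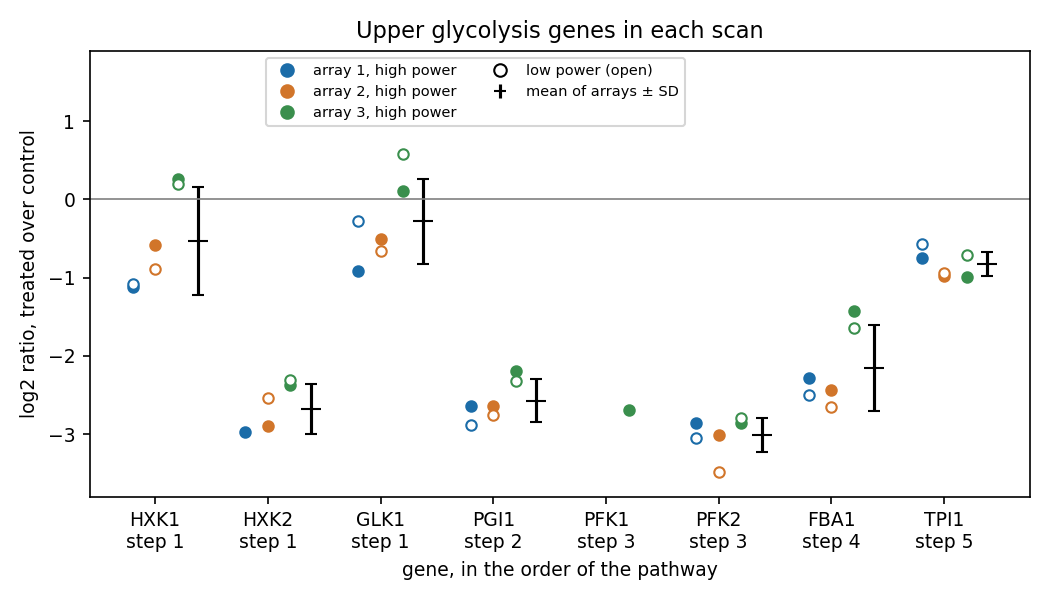
Log2 ratio, treated over control, of the 8 upper glycolysis genes in the order of the pathway. Filled points are high power scans, open points low power scans, colours the 3 arrays, and bars the mean of the arrays ± SD; HXK2, PGI1, PFK2 and FBA1 lie below -1.4 in every scan, while HXK1 and GLK1 lie on both sides of 0.

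The first step was served by genes that changed unequally. HXK2 (YGL253W), which encodes hexokinase 2, had log2 ratios of -2.97, -2.72 and -2.34 on arrays 1, 2 and 3. All 3 lay far below 0. HXK2 fell by 2.68 ± 0.32 (SD, n = 3), to 15.6% of the control, with a 95% interval of the mean from -3.12 to -2.23 (limma adjusted p = 3.41e-05). On array 1 its value came from the high power scan alone.

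HXK1 (YFR053C), the gene of hexokinase 1, gave -1.10 on array 1, -0.74 on array 2 and 0.24 on array 3. Arrays 1 and 2 were below 0 and array 3 above it. Its mean was -0.53 ± 0.69 (SD, n = 3), with an interval from -1.17 to 0.10, and it did not pass (limma adjusted p = 0.12). The outcome rested on array 3: without it the log2 ratio was -0.92 (limma adjusted p = 0.0215, on 2 arrays) and the count of called genes rose from 5 to 6. With low power scans alone HXK1 also passed, at -0.59 (limma adjusted p = 0.00759, over 560 genes). Its low power values still lay on both sides of 0, at -1.08, -0.89 and 0.20 on arrays 1, 2 and 3. That fit leaned on the variance pooled over genes: PFK2 had a limma adjusted p of 8.06e-17 there, against 1.34e-05 in the main fit.

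GLK1 (YCL040W), the gene of glucokinase, which phosphorylates aldoses and not fructose, had values of -0.60, -0.59 and 0.34 on the 3 arrays. As for HXK1, array 3 alone was above 0. The mean was -0.28 ± 0.54 (SD, n = 3), the interval ran from -0.83 to 0.27, and the gene did not pass (limma adjusted p = 0.32). It stayed short of the threshold without array 3, at -0.59 (limma adjusted p = 0.059), and stood at -0.12 without array 1 and -0.13 without array 2. It had the largest difference between scans of one array among the 8 genes: the low power value exceeded the high power one by 0.64 on array 1 and 0.48 on array 3 and was 0.16 below it on array 2. The median size of the scan difference over the 20 scan pairs of these genes was 0.20.

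Within each array the isoenzymes could be set against each other, and 3 pairs were compared. This removes the zero of the array where both genes have the same scans. HXK2 lacked the low power scan on array 1, so the zeros do not fully cancel there in the differences from HXK2. With the high power scan alone, array 1 gave 1.86 for HXK1 minus HXK2 and 2.06 for GLK1 minus HXK2. The difference HXK1 minus HXK2 was 1.88, 1.98 and 2.57 on arrays 1, 2 and 3. HXK2 was thus lower relative to HXK1 on all 3 arrays, by 2.14 ± 0.38 on average (SD, n = 3), or 4.42-fold. GLK1 minus HXK2 was 2.37, 2.13 and 2.68, a mean of 2.40 ± 0.27 (SD, n = 3), or 5.26-fold. In single scans HXK1 minus HXK2 ran from 1.65 (array 2, low power) to 2.64 (array 3, high power). GLK1 minus HXK2 ran from 1.88 (array 2, low power) to 2.88 (array 3, low power). HXK1 minus GLK1 was -0.50, -0.15 and -0.11, a mean of -0.25 ± 0.21 (SD, n = 3). HXK1 was the lower of these on all 3 arrays, although on array 3 the high power scan gave 0.16 and the low power scan -0.38.

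Both differences from HXK2 passed the limma fit of every gene minus HXK2, with adjusted p = 3.56e-09 for HXK1 and 3.02e-10 for GLK1. In that fit 93.9% of the 2132 other genes were called higher than HXK2, so a call there is the common case. Every gene in it also carries the error of HXK2 itself, which makes its p-values too small. With the standard errors of the 2 genes combined as if separate, a check chosen after seeing the data, p was 0.000339 for HXK1 and 9.65e-05 for GLK1 (limma variances, not adjusted for the 3 pairs), and the 95% intervals ran from 1.37 to 2.92 and from 1.69 to 3.10. HXK1 and GLK1 were not distinguished from each other (limma fit of every gene minus GLK1, adjusted p = 0.58, with 14.1% of genes called lower than GLK1). Their interval, from -1.09 to 0.59 with separate errors, leaves room for a difference in either direction. The exact sign-flip test over 3 arrays gave its smallest possible two-sided p of 0.25 for each pair. HXK1 and HXK2 are duplicates of one ancestral gene and similar in sequence, so cDNA of one may bind the probe of the other. The part of this in their values was not tested, nor was such binding between GLK1 and its paralogue EMI2.

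**Figure D2:**
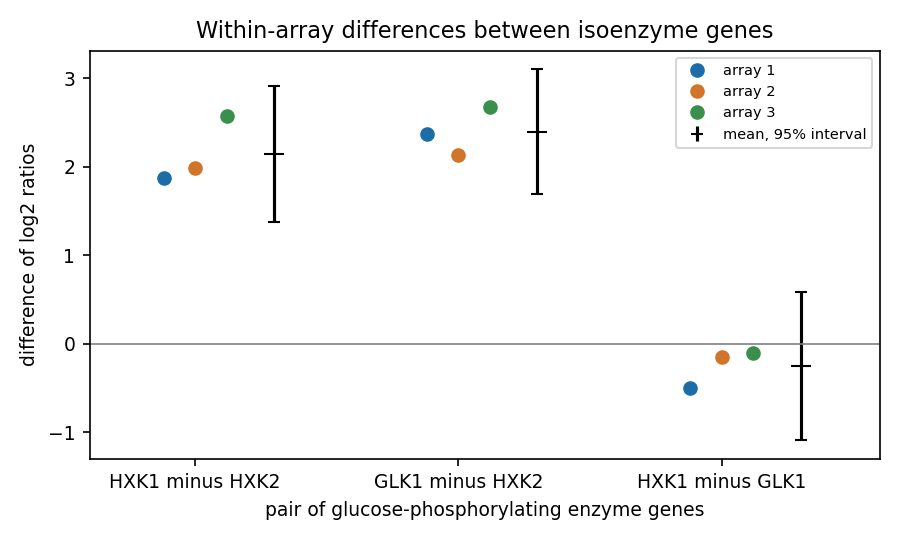
Within-array differences of log2 ratios between the genes of the 3 glucose-phosphorylating enzymes. Points are arrays with their scans averaged, bars the mean and its 95% interval from the combined standard errors of the pair. On array 1 HXK2 has the high power scan alone. Both differences from HXK2 lie above 1.8 in every array average, and HXK1 minus GLK1 lies between -0.50 and -0.11.

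The steps between glucose-6-phosphate and the split sugar were strongly reduced as well. PGI1 (YBR196C), phosphoglucose isomerase, which makes fructose-6-phosphate and has no second gene in yeast, had values of -2.76, -2.70 and -2.26 on arrays 1, 2 and 3. These lay close together, and PGI1 fell by 2.57 ± 0.28 (SD, n = 3), to 16.8% of the control (limma adjusted p = 3.42e-05).

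PFK2 (YMR205C), the beta subunit of phosphofructokinase, gave -2.95, -3.25 and -2.83. It fell by 3.01 ± 0.22 (SD, n = 3), to 12.4% of the control, the lowest mean of the 7 tested genes (limma adjusted p = 1.34e-05). PFK1 (YGR240C), the alpha subunit of the same enzyme, had a single value, -2.69 in the high power scan of array 3. In that scan PFK2 stood at -2.86, and in the absence of a replicate for PFK1 no comparison of the subunits was made.

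FBA1 (YKL060C), the aldolase that splits fructose-1,6-bisphosphate, had values of -2.39, -2.55 and -1.53. Array 3 stood apart, nearer to 0 than the mean of the others by 0.94, and all 3 values were still below -1.5. FBA1 fell by 2.16 ± 0.55 (SD, n = 3), to 22.4% of the control (limma adjusted p = 0.000237). TPI1 (YDR050C), the isomerase that interconverts the triose phosphates, had values of -0.66, -0.96 and -0.85, the tightest of the 7 genes. TPI1 fell by 0.82 ± 0.15 (SD, n = 3), to 56.6% of the control, with an interval from -1.21 to -0.43 (limma adjusted p = 0.00425).

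Ordered by mean log2 ratio, the tested genes ran from PFK2 over HXK2, PGI1, FBA1, TPI1 and HXK1 to GLK1. Neighbours in that order had overlapping ranges over the arrays, with the exception of FBA1 and TPI1. TPI1 lay above FBA1 on all 3 arrays, by 1.73, 1.59 and 0.68, a mean of 1.33 ± 0.57 (SD, n = 3; exact two-sided p = 0.25, the smallest possible). HXK2 and PGI1 differed by only 0.11 ± 0.10 (SD, n = 3). HXK1 lay below TPI1 on array 1, by 0.44, and above it by 0.22 and 1.09 on arrays 2 and 3.

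Set against all 2133 tested genes, the strongly reduced genes kept to the bottom of each array. PFK2 had the rank 73 from the lowest mean, HXK2 rank 95, PGI1 rank 100 and FBA1 rank 131. PFK2, HXK2, PGI1 and FBA1 lay between the percentiles 2.30 and 9.61 on every array, and PFK1 at 4.97 on array 3. TPI1, with rank 407, lay between the percentiles 16.4 and 27.9. HXK1 had the percentiles 17.6, 20.4 and 46.5 on arrays 1, 2 and 3, and GLK1 29.3, 24.0 and 51.2. On array 3 both therefore stood near the middle of the tested genes, in place as well as in ratio.

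**Figure D3:**
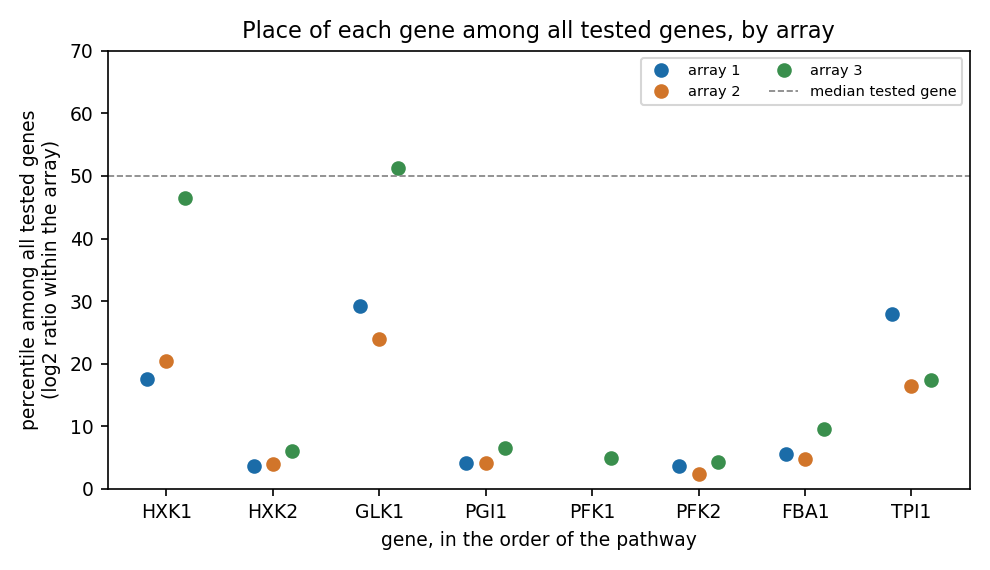
Percentile of each upper glycolysis gene's log2 ratio among all tested genes of the same array (0 is the lowest). Points are arrays 1, 2 and 3, and PFK1 has array 3 alone; 4 genes stay under 10 on every array, while HXK1 and GLK1 reach 46.5 and 51.2 on array 3.

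Array 3 was higher than the mean of arrays 1 and 2 by 0.12 for the median tested gene. The excess was 1.15 for HXK1, larger than for 97.7% of tested genes. It was 0.94 for FBA1 and 0.93 for GLK1, each larger than for 94.7% of genes. HXK2 with 0.51, PGI1 with 0.48 and PFK2 with 0.27 shifted less, and TPI1 did not share the shift (-0.05). What sets array 3 apart was not tested.

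By root mean square distance of the log2 ratios over the 3 arrays, the genes outside the pathway stretch most like HXK1 were SDH1 (0.10), a succinate dehydrogenase subunit, MDH1 (0.11), the mitochondrial malate dehydrogenase, and PGM2 (0.14), the major phosphoglucomutase. GLK1 was 0.31 from HXK1, and 28 of the 2132 other genes were closer to HXK1. Nearest to GLK1 were LSM4 (0.07), of an RNA-binding ring, CBP4 (0.10), an assembly factor of the respiratory chain, and PTK2 (0.12), a protein kinase. For HXK2 the closest of all genes was PGI1, at 0.13. Outside the stretch ENV9 (0.18), ACO1 (0.24), which encodes aconitase, and ADH1 (0.27), the main alcohol dehydrogenase of fermentation, followed. With 3 arrays such likeness describes these values and is no test.

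Of 7 genes that control or resemble the upper enzymes 4 were tested, of which 2 rose, 1 fell and 1 did not pass. With 37.2% of all tested genes called higher and 25.3% lower, the count of so few genes is near the background. PFK26 (YIL107C), which makes the phosphofructokinase activator fructose-2,6-bisphosphate, had 1.28, 1.71 and 1.13 on arrays 1, 2 and 3 and rose by 1.38 ± 0.30 (SD, n = 3; limma adjusted p = 0.000646). PFK27 (YOL136C), which encodes a second enzyme of that activity, gave -1.05, -1.47 and -0.88 and fell by 1.13 ± 0.30 (SD, n = 3; limma adjusted p = 0.00161). These isoenzyme genes thus went opposite ways on all 3 arrays. TPS1 (YBR126C), of trehalose synthesis, whose product trehalose-6-phosphate inhibits hexokinase, rose by 0.70 ± 0.43 (SD, n = 3; limma adjusted p = 0.0224), but without array 3 it was at 0.45 and did not pass (limma adjusted p = 0.11). EMI2 (YDR516C), a paralogue of GLK1, was at -0.48 ± 0.47 (SD, n = 3) with values of -1.01, -0.35 and -0.09 and did not pass (limma adjusted p = 0.091); it passed when scans were centred without ribosomal protein genes, at -0.58 (limma adjusted p = 0.0449), and in none of the other 10 settings, with -0.22 without array 1 (limma adjusted p = 0.52).

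All 7 genes at the branches from hexose and triose phosphates were tested: 4 fell, 1 rose and 2 did not pass, where 25.3% of all tested genes were called lower and 37.2% higher. PMI40 (YER003C), which converts fructose-6-phosphate towards mannose, fell by 2.06 ± 0.12 (SD, n = 3; limma adjusted p = 5.57e-05). PGM1 (YKL127W), the minor phosphoglucomutase, fell by 1.40 ± 0.30 and GPD2 (YOL059W), which leads dihydroxyacetone phosphate to glycerol, fell by 1.18 ± 0.24 (SD, n = 3; limma adjusted p = 0.000608 and 0.00106). ZWF1 (YNL241C), glucose-6-phosphate dehydrogenase, the entry to the pentose phosphate pathway, rose, with 1.10, 1.73 and 3.26 on arrays 1, 2 and 3, a mean of 2.03 ± 1.11 (SD, n = 3; limma adjusted p = 0.00315). The enzymes that use glucose-6-phosphate were thus mixed: PGI1 and PGM1 were lower on every array, and ZWF1 and TPS1 higher. PGM2 lay on both sides of 0, at -1.19, -0.61 and 0.42 on arrays 1, 2 and 3, and did not pass (limma adjusted p = 0.22).

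Of 11 genes of lower glycolysis, from triose phosphate to pyruvate, 8 were tested, 3 rose, 3 fell and 2 did not pass, with a median of -0.21. Over all tested genes 37.2% were called higher and 25.3% lower, so this count is near the background. CDC19 (YAL038W), the main pyruvate kinase, fell by 2.88 ± 0.27, and the enolase genes ENO1 and ENO2 fell, at -1.30 ± 0.16 and -1.27 ± 0.36 (SD, n = 3; limma adjusted p = 1.93e-05, 0.000525 and 0.00115). TDH2 (YJR009C), for glyceraldehyde-3-phosphate dehydrogenase, rose by 0.80 ± 0.01 (SD, n = 3; limma adjusted p = 0.00383). Its near-identical relatives limit what the probe can separate. All 3 tested genes from pyruvate to ethanol fell, of 4 listed: PDC1 fell by 3.00 ± 0.05, ADH1 fell by 2.92 ± 0.19 and PDC5 fell by 2.44 ± 0.28 (SD, n = 3). Binding of cDNA to the probe of a related gene was not tested for ENO1 and ENO2 or for PDC1 and PDC5. The falls within each of these pairs may therefore not be separate. Whether the lists differ from upper glycolysis was not tested.

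Of 8 transcription regulators linked to glycolytic, glucose or stress control, 2 had values on all arrays, and both fell, where 25.3% of all tested genes were called lower. When 2 arrays sufficed (3307 genes tested), 4 regulators were called lower and 0 higher. Without array 1 (2945 genes tested), 3 were called lower and 1 higher. The share of 25.3% belongs to the main setting and not to these. TYE7 (YOR344C), an activator of glycolytic genes, had -2.36, -2.62 and -2.40 on arrays 1, 2 and 3 and fell by 2.46 ± 0.14 (SD, n = 3; limma adjusted p = 2.75e-05). MSN4 (YKL062W), a general stress activator, fell by 0.74 ± 0.24 (SD, n = 3; limma adjusted p = 0.00922), and was at -0.70 without array 2, where it did not pass (limma adjusted p = 0.054).

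**Figure D4:**
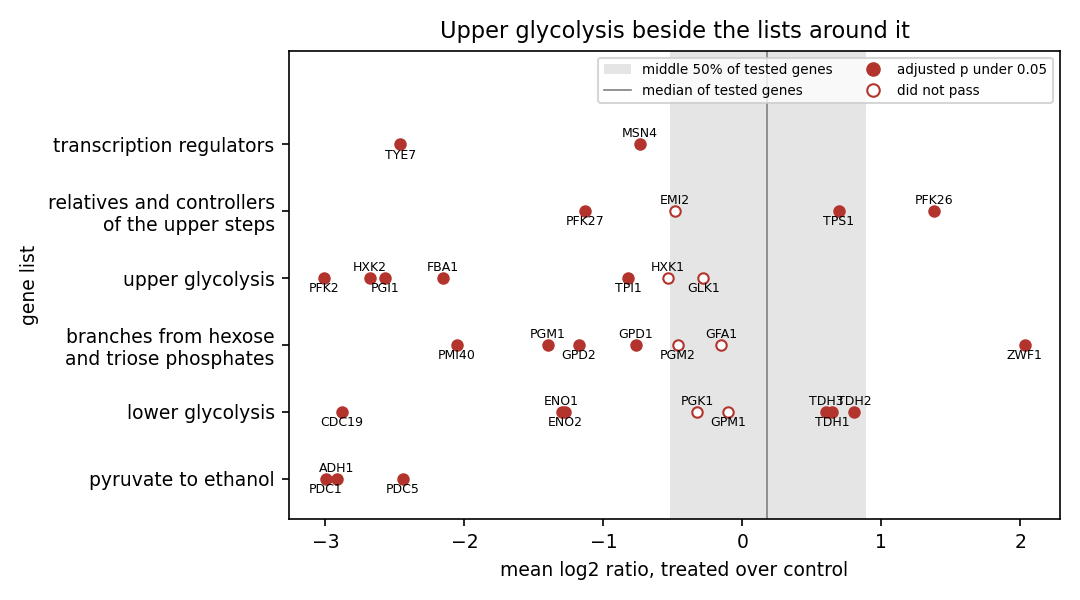
Mean log2 ratio of the tested upper glycolysis genes beside 5 lists around the pathway. Each point is a gene, filled where adjusted p was under 0.05, the grey band spans the quartiles of all tested genes and the grey line is their median (0.18); PFK2, HXK2, PGI1 and FBA1 lie left of -2, as do PMI40, TYE7, CDC19 and the genes from pyruvate to ethanol.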

How the data were processed

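Log2 ratios per probe and scan were deposited, and they are read here as Cy5 over Cy3, which is not stated. Per the labels' descriptions the authors normalised them by LOWESS over spots with flag value 0. The base is read from the values, the lowest being -6.64, the log2 of 0.01. The sources used here give neither the image software nor the array's genome build, and no coordinates are given. Of 6912 probes 5446 had 1 gene symbol (GEO's platform annotation) and 1466 none. Locus tags came from NCBI's S288C table (assembly R64). Probes of a gene, then the scans of each array, were averaged, leaving 3 arrays as replicates. Means were tested against 0 with limma 3.58.1 (R 4.3.3; lmFit and eBayes, with 4.84 prior beside 2 residual degrees of freedom), Benjamini-Hochberg over 2133 genes, threshold 0.05; errors are SDs over arrays. Isoenzyme differences were tested by limma on every gene minus the reference gene and by exact sign flips. The scripts were tested on simulated data. The genes and lists were chosen with earlier results of these data known. Named are all 8 genes, per list the 4 tested genes of largest absolute mean log2 ratio, and the 3 genes nearest to each isoenzyme gene. Alternatives were each scan power alone, 6 scans with arrays as random blocks, 2 ways of centring, scaling, values on 2 arrays, robust eBayes, the first listed probe, stricter thresholds, each array left out and separate errors for pairs.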

Additional observations from a re-analysis of the deposited data

How the results depend on the processing

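HXK2, PGI1, PFK2, FBA1 and TPI1 passed in every setting that gave them a value (11 for HXK2, 12 for each of the others), with TPI1 between -0.95 and -0.74; HXK2 had no value on array 1 at low power. The count of called genes was 5 in each setting except 4 at a minimum of 2-fold, without TPI1, and 6 without array 3, with HXK1. Among the 5 at low power HXK1 stood in place of HXK2, which was not tested there. GLK1 passed in 0 of 12 settings (-0.59 to -0.12, the lowest limma adjusted p being 0.059), and HXK1 in 2 of 12 (-0.92 to -0.25). HXK1 minus HXK2 stayed between 1.93 and 2.28 and GLK1 minus HXK2 between 2.25 and 2.53 over 10 settings each, all past the threshold, and HXK1 minus GLK1 between -0.47 and -0.04 over 11, none past it. For the differences from HXK2, all settings but the separate errors used the fit of every gene minus HXK2. Its p-values are too small, and 93.9% of genes were called higher in its main setting, so passing there is the common case. Fits without an array rest on 2 arrays, and they and the low power fit lean on the pooled variance. Centring without ribosomal protein genes lowered the median tested gene by 0.11 and turned no direction. For lower glycolysis, 1 gene in place of 3 was called lower with high power scans alone, because CDC19 and ENO2 each lacked a high power value on 1 array; 1 in place of 3 was called higher at adjusted p under 0.01 and without array 3, and 0 at a minimum of 2-fold. With low power scans alone only 560 genes were tested. There the branch list had 1 called lower and 0 higher, the list of controllers and relatives 0 lower and 1 higher, and the regulators 0 lower. PGM1, ZWF1, PMI40, PFK26, PFK27, EMI2, TYE7 and MSN4 were not tested at low power, so these counts say nothing about them. No probe intensities were used, so signal over background is unknown.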
